A study of Mus musculus with 3 samples.

Results

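The cytosolic ribosomal protein genes encode the proteins of the large and the small subunit of the ribosome outside mitochondria. They were chosen by symbol as protein-coding genes called Rpl or Rps with a number and at most 1 further letter, together with Rpsa, Rplp0, Rplp1 and Rplp2, on chromosomes 1 to 19. This gave 77 of 20560 protein-coding genes, of which 47 belong to the large and 30 to the small subunit. Rpl39, Rpl10, Rps4x and Rpl36a lie on the X chromosome and are outside the rule. The choice used no measured value, but it was made with earlier results of these data known.

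The data are lists of nucleosome positions from micrococcal nuclease sequencing, in which an enzyme digests the DNA between nucleosomes and the protected DNA is sequenced. The cells were erythroblasts, the nucleated precursors of red cells, taken from the livers of 6 mouse fetuses as Ter119-negative cells, that is without a surface marker of later erythroid stages. All were kept in IMDM with 10% fetal bovine serum, 1% BSA, insulin and 2 U/ml erythropoietin, a hormone of red cell formation, and cells were harvested at culture days 0, 1 and 2. Each day has 1 library, the sources used here give no strain or genotype and do not say whether the days come from 1 culture, so no difference below has a replicate check and none was tested. Nucleosome positions do not measure transcripts, so the cell type label was not checked against marker transcripts.

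The autosomes held 3689577, 2967550 and 4382151 listed positions on days 0, 1 and 2, or 1.50, 1.21 and 1.78 positions per kb. Their summit values, a smoothed and scaled coverage at the centre of each position, had medians of 7.62, 6.80 and 6.26. In each library nearly all summit values lie on whole steps of 1 constant, and if 1 step is 1 unit of coverage, day 1 was 2.36 times and day 2 1.22 times as deep as day 0. Day 1, where the ribosomal protein genes stood highest, is thus also the library with the fewest positions and the most coverage, and the part of this in the differences between days was not tested.

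A ribosome is built from ribosomal RNA and about equal numbers of each ribosomal protein, so that the genes of both subunits are transcribed at high and matched rates in growing cells. Mammalian ribosomal protein genes are short, rich in introns, many of which carry snoRNAs, and most have a start site in a run of pyrimidines, the 5′ TOP motif, whose mRNAs are translated under the control of mTOR. Erythroid precursors make large amounts of globin and are sensitive to a shortage of ribosomes, and in humans loss of 1 copy of several of these genes causes Diamond-Blackfan anaemia, a failure of red cell production.

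The start-site sequences below show the region that was nearly free of nucleosome centres in most members. Each runs from 100 bases before to 20 bases after the start site used, 5′ to 3′, from RefSeq on GRCm38.p6, whose coordinates equal those of mm10. The start site used for Rpl18 lies 2604 bp inside its gene span. Capitals mark a match to CCGGAAG, the core bound by ETS factors, on either strand, or a run of at least 6 pyrimidines within 10 bases of the start. Rpl13a, Rpl18, Rpl28, Rpl4 and Rps16 are the members whose first nucleosome after the start stayed within 20 bp on all 3 days. Rps18 is shown as a member with both kinds of capitals, Rpl10a as the member with a centre before the start on every day, and Rpl3l as a member without the usual CpG content.
Rpl13a (chr7:45128726-45128845, minus strand): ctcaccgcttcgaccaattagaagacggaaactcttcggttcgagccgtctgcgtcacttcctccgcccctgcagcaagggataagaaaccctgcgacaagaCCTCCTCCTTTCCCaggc
Rpl18 (chr7:45717971-45718090, plus strand): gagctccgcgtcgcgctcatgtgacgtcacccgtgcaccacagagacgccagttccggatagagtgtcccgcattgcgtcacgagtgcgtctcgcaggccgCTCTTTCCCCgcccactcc
Rpl28 (chr7:4792865-4792984, plus strand): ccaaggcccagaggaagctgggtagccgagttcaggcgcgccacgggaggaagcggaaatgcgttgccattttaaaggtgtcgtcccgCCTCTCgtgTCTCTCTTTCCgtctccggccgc
Rpl4 (chr9:64173287-64173406, plus strand): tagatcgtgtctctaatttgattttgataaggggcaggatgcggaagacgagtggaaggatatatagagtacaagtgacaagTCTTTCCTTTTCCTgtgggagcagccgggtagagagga
Rps16 (chr7:28350589-28350708, plus strand): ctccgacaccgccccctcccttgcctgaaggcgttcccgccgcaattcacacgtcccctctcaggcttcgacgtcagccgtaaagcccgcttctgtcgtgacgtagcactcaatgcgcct
Rps18 (chr17:33955646-33955765, minus strand): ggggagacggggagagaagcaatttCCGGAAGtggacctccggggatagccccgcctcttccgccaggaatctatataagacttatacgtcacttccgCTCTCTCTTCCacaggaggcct
Rpl10a (chr17:28328371-28328490, plus strand): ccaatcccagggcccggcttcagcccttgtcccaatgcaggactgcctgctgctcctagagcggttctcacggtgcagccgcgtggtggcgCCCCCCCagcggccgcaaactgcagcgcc
Rpl3l (chr17:24727726-24727845, plus strand): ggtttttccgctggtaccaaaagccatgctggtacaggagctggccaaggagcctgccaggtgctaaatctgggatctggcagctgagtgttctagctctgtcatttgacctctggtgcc

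The start sites of 57 of the 77 members were matched in the RefSeq table, and those of 20, among them Rpl3, Rplp1, Rps14, Rps20 and Rps29, were not. The matched promoters, taken from 250 bases before to 50 after the start, held a median of 21 CpG dinucleotides (range 2 to 35), against 14 over all 16457 coding genes with a start. CCGGAAG stood in 23 of the 57 promoters (40.4%), against 12.3% of all promoters, and the cyclic AMP response word TGACG in 29 (50.9%), against 24.2%. A run of at least 6 pyrimidines near the start was found in 30 members (52.6%), against 20.9% of all genes, and 20 members (35.1%) had C at the start position itself, against 13.8%. The YY1 core ATGGCGG was present in 9 members (15.8%), against 5.51% of all promoters. Of the other motifs searched on both strands, the GC box GGGCGG was present in 32 members (56.1%), against 47.3%, the E-box CACGTG in 5 (8.77%), against 7.97%, TATAAA in 5 (8.77%), against 13.5%, and the erythroid GATA motif AGATAA in 2 (3.51%), against 9.85% of all promoters. None of these words contains another, and a match is a word in the sequence, not a bound site.

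Most ribosomal protein genes with a matched start lacked a nucleosome centre just before it. From 150 bp before the start to the start, 53 of 57 members had no centre on day 0, 51 on day 1 and 48 on day 2, against 70.3%, 68.9% and 63.3% of all coding genes. These are 93.0%, 89.5% and 84.2% of the members, and 45 members were empty on all 3 days. The summit-weighted density of centres in this stretch, set to 1 for the autosome mean, came to 0.364 (95% interval 0.0991 to 0.931 from 4 centres), 0.666 (0.245 to 1.45 from 6 centres) and 0.635 (0.304 to 1.17 from 10 centres) on days 0, 1 and 2. Over all coding genes it was 1.48, 2.19 and 1.60, above the upper bound of the members on each day. The intervals are exact Poisson intervals and cover the counting of centres only.

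The gap was also present against genes of like CpG content. Among the 4195 coding genes with 16 to 26 CpG in the promoter, the middle range of the members, 76.2%, 72.6% and 68.2% had no centre in the same stretch on days 0, 1 and 2, and the density was 1.18, 1.89 and 1.40, again above the upper bounds of the members. The 69 mitochondrial ribosomal protein genes with a start, with the same median of 21 CpG, came nearer, with densities of 0.842, 0.931 and 0.797 and 81.2%, 84.1% and 79.7% without a centre. Their values lie inside the intervals of the members on all 3 days, so the densities of both groups of ribosomal protein genes could not be separated at this number of centres.

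**Figure D1:**
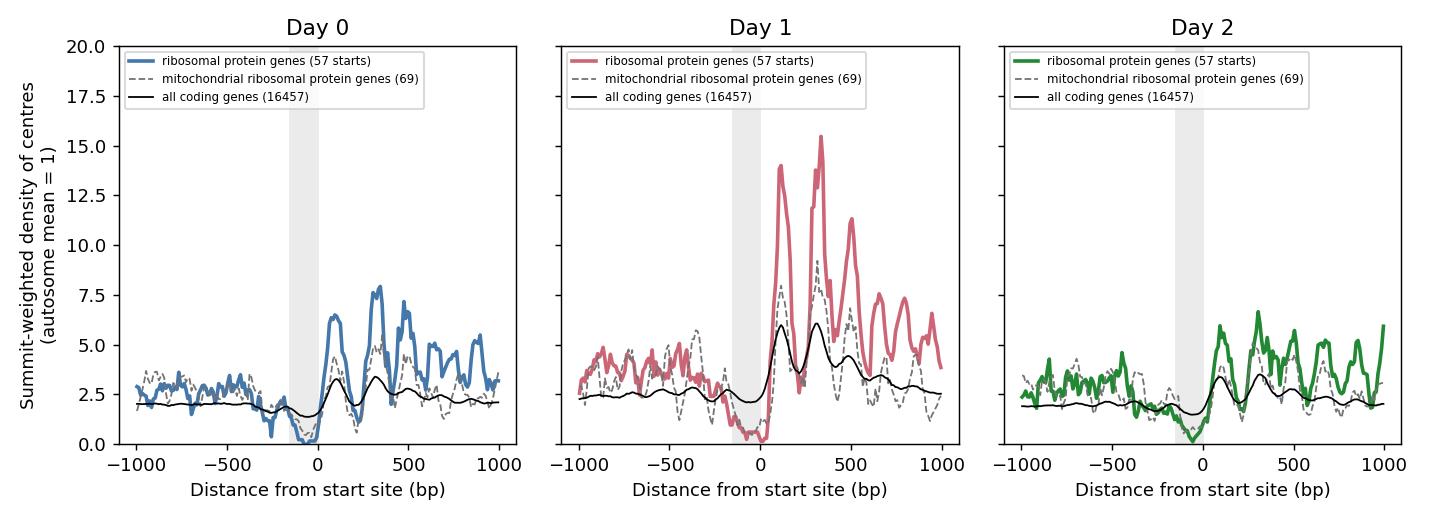
Density of nucleosome centres, weighted by summit value and relative to the autosome mean, against distance from the start site in bp, smoothed over 75 bp, for days 0, 1 and 2 from left to right. The grey band marks the 150 bp before the start, where the ribosomal protein genes (thick line, 57 starts) lie below all coding genes (thin line, 16457 starts); after the start their first maximum reaches 6.49, 14.0 and 5.95.

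Downstream of the empty stretch the density of centres was higher in the members than over all coding genes. Each maximum below is the highest point of a fixed stretch, and regular spacing was not measured. With a smoothing of 31 bp the first maximum of the member profile lay 95 bp after the start on day 0, 135 bp on day 1 and 95 bp on day 2, with heights of 7.41, 16.6 and 6.27 times the autosome mean. The second lay at 325, 315 and 285 bp, with heights of 9.82, 19.7 and 7.54. Over all coding genes the first maximum lay at 105, 115 and 95 bp, with heights of 3.43, 6.21 and 3.57. Between 50 and 170 bp after the start the density was 5.42, 10.1 and 4.97 in the members, against 2.94, 5.27 and 3.06 over all coding genes and 3.84, 7.16 and 4.14 in the genes of the members' middle CpG range. The maxima of the members rest on 13, 16 and 13 centres, and with a smoothing of 75 bp the day 1 maximum moved to 115 bp.

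A first nucleosome, defined as the first centre from 20 to 220 bp after the start, was listed in 50 members on day 0, 53 on day 1 and 51 on day 2. Its median distance was 97 bp, 123 bp and 107 bp, against 107, 109 and 103 bp over all coding genes that had one. It was present on all 3 days in 45 of 57 members (78.9%), against 41.2% of all coding genes. Within these 45 members the distance on the 3 days spanned a median of 50 bp, against 65 bp over all genes, and it stayed within 20 bp in 5 members (11.1%), against 9.86% of all genes. The first nucleosome of the members was thus listed more often than over all coding genes, while its exact place repeated about as often. Genes of like CpG content came nearer. Between 50 and 170 bp after the start, 57.0%, 69.2% and 65.1% of them had a centre on days 0, 1 and 2. The shares were 70.2%, 80.7% and 77.2% in the members and 44.8%, 52.2% and 51.0% over all coding genes. The members also have more positions per kb, and the part of this in the listing was not tested.

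The 5 members with the steadiest first nucleosome belong to both subunits. In Rps16, a small subunit protein, it was centred 152, 152 and 142 bp after the start on days 0, 1 and 2. In Rpl13a, which in human macrophages leaves the ribosome to silence inflammatory mRNAs, it was centred at 74, 79 and 84 bp, and in Rpl28 at 106, 106 and 96 bp. In Rpl18 it lay at 90, 110 and 90 bp, and in Rpl4, a core protein of the large subunit exit tunnel, at 84, 104 and 104 bp. At the other end, the centre of Rps27l, a paralog of Rps27 induced by p53, lay at 145, 30 and 65 bp, and that of Rpl19 at 126, 131 and 21 bp. The start sites used for Rps27l and Rpl19 lie 1462 and 4707 bp inside their gene spans. Rps18 had its first centre at 44, 134 and 94 bp and Rps19 at 59, 139 and 49 bp, in both farthest from the start on day 1.

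A few members departed from the common arrangement. Rpl10a was the only one of the 57 with a centre in the 150 bp before the start on each of the 3 days, and its first centre after the start lay far out, at 190, 210 and 180 bp. Rpl27, a large subunit protein, had no centre from 20 to 220 bp after the start on any day. Rpl3l, a paralog of Rpl3 made in heart and skeletal muscle, has 2 CpG in its promoter and had a centre before the start on days 1 and 2. Rpl22, which also acts in T cell development, had 0, 1 and 2 centres before the start on days 0, 1 and 2 and no first nucleosome on day 2.

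**Figure D2:**
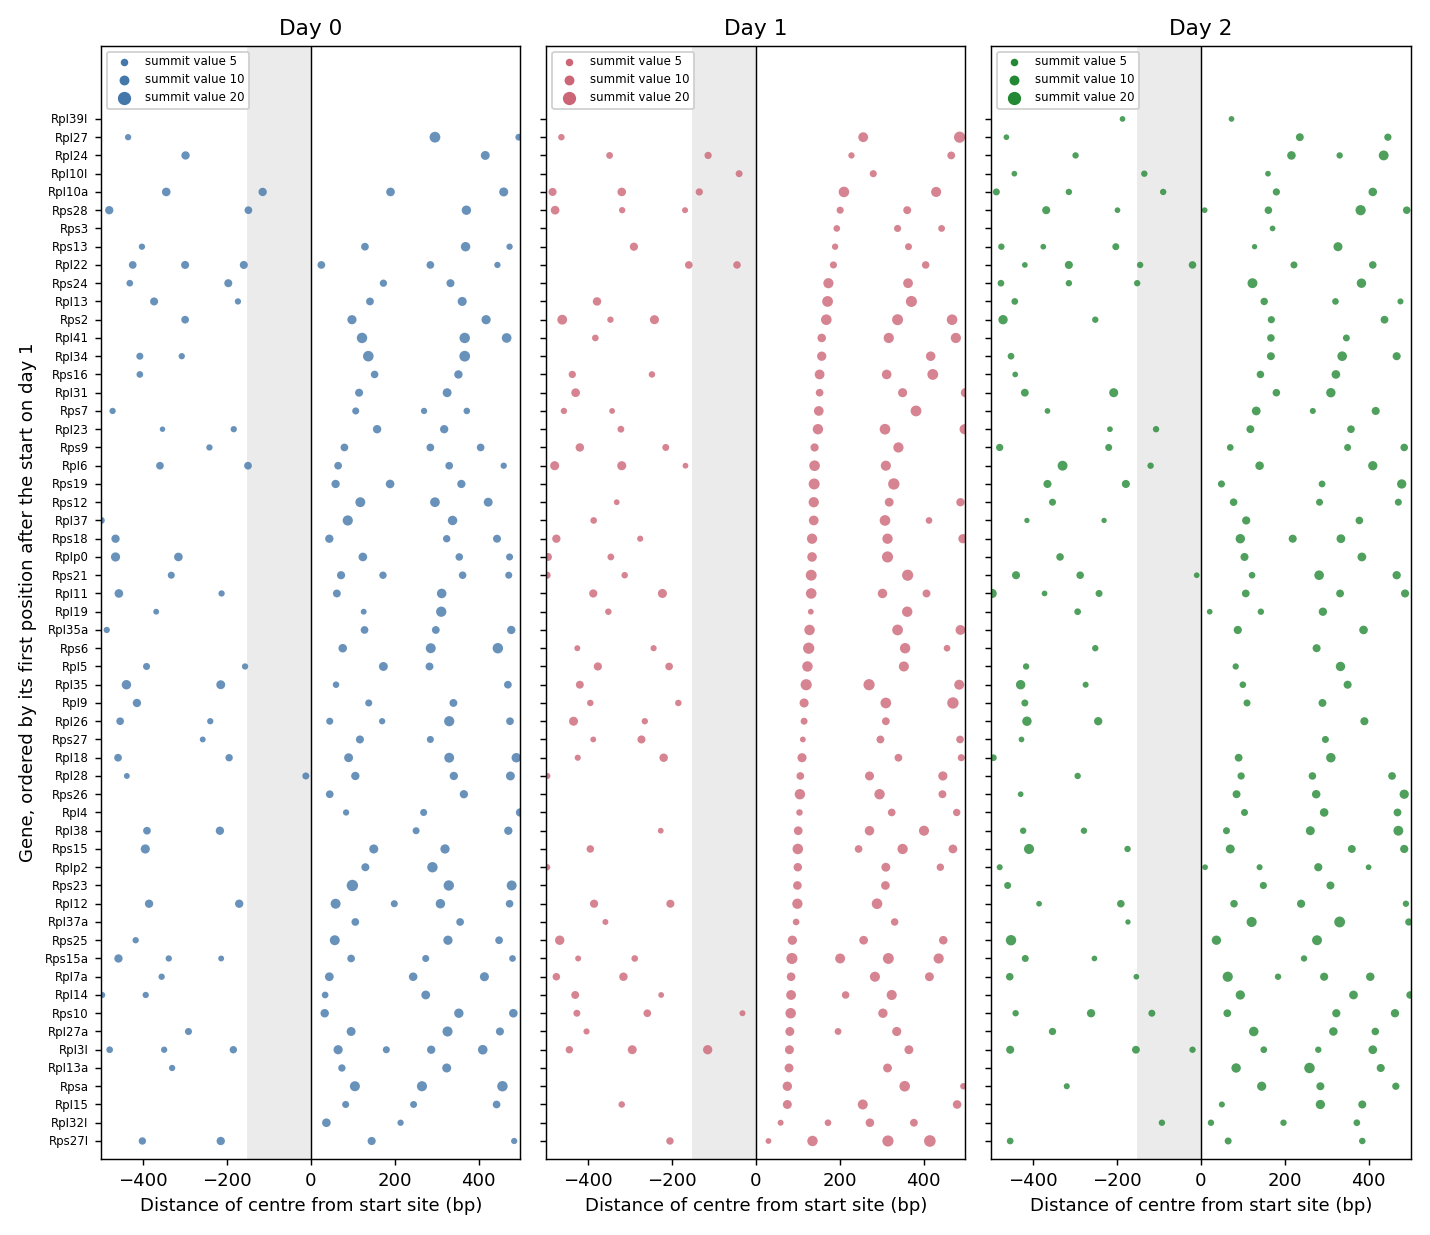
Nucleosome centres from 500 bp before to 500 bp after the start of the 57 members with a start site, 1 gene per row, for days 0, 1 and 2 from left to right, with dot size set by the summit value. Rows are ordered by the first centre on day 1, which makes that column look aligned; the grey band marks the 150 bp before the start, empty in 53, 51 and 48 members.

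By their medians, the first nucleosomes had higher summits than the mean of a member window and lower fuzziness than its median. Their summit value had a median of 10.2 on day 0, 13.3 on day 1 and 8.76 on day 2, against 9.44, 9.15 and 8.20 for the median position of a member window. Their fuzziness score, the authors' measure of the spread of reads around a centre, had medians of 46.8, 48.8 and 48.6, below the medians over all positions of a member, which were 53.2, 55.8 and 53.4.

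Over the whole gene with 1 kb on each side, nucleosome positions were denser and higher at ribosomal protein genes than at most genes. Relative occupancy adds up the summit values in this window per bp and divides them by the autosome mean, and had member medians of 3.51 (95% interval of the median over genes 3.09 to 3.87), 4.85 (4.39 to 5.48) and 3.04 (2.85 to 3.27) on days 0, 1 and 2. The median of all coding genes was 1.92, 2.06 and 1.74. Of the 77 members, 68, 73 and 75 exceeded the all-gene median, and 21, 30 and 26 exceeded the 90th percentile of all genes. Positions per kb had medians of 4.24, 4.69 and 4.47 in the members, against 2.91, 2.57 and 3.05. The large subunit had medians of 3.68, 5.003 and 3.08 and the small subunit 3.45, 4.57 and 2.91, and the intervals of these medians overlap on each day.

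Part of this level is shared with short genes and with the surrounding chromatin. The 1572 coding genes from 2502 to 4516 bp long, the range between the quartiles of the members' lengths, had medians of 2.71, 3.47 and 2.44. The 100 kb on each side of the members had 2.85, 3.52 and 2.39, against 1.82, 1.84 and 1.61 around all coding genes. Across the 77 members the level of the gene followed that of its surroundings, with Spearman correlations of 0.80, 0.77 and 0.70 on the 3 days, a description over genes that share a library and their base composition. Within the window the gene itself held more than its flanks, with 3.80 against 2.64 on day 0, 5.16 against 3.69 on day 1 and 3.23 against 2.59 on day 2, and 67, 64 and 59 of the 77 members had the gene above the flanks (87.0%, 83.1% and 76.6%). Over all coding genes the share with the gene above its flanks was 56.1%, 55.2% and 52.9%. The 78 mitochondrial ribosomal protein genes had median levels of 3.04, 3.38 and 2.59, with the gene above the flanks in 67.9%, 67.9% and 61.5%.

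**Figure D3:**
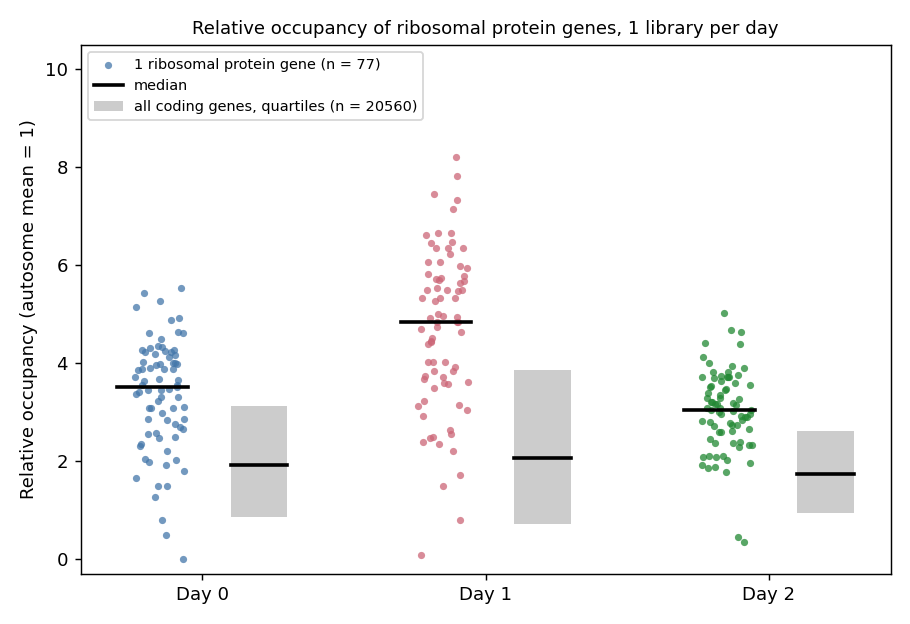
Relative occupancy of each ribosomal protein gene on days 0, 1 and 2 (dots, n = 77; black line, median) beside the quartiles and median of all coding genes (grey bars, n = 20560), on a scale where the autosome mean is 1. The member medians of 3.51, 4.85 and 3.04 lie above the upper quartile of all genes on each day.

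By the mean over days the 3 highest members were genes of the small subunit. Rps15 (chr10:80292431-80294114), a protein near the decoding centre, had a relative occupancy of 5.44 on day 0, 7.45 on day 1 and 4.67 on day 2. Rps2 (chr17:24718121-24721927) had 4.93, 8.20 and 3.82, and Rps18 (chr17:33951998-33955665), a protein of the head of the small subunit, had 4.63, 7.83 and 4.41. All were highest on day 1, and Rps2 was the highest of the 77 there. Rpl3l (chr17:24727826-24736143) lies near Rps2 and followed Rps18 by its mean over days, with 5.53, 6.46 and 3.94, the highest member on day 0. The highest on day 2 was Rpl7a, a large subunit protein, which had 3.31, 6.48 and 5.01.

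By the mean over days the lowest members were 2 copies outside the general set. Rpl39l (chr16:10170197-10174911), a paralog of the X-linked Rpl39 that is made mainly in testis, had 0.495 on day 0, 0.0865 on day 1 and 0.336 on day 2, from 6, 1 and 5 positions. Rpl10l (chr12:66283379-66284401), an intronless copy of the X-linked Rpl10 used in male germ cells, had no position on day 0 and 3 on each of the other days, with 0.792 on day 1 and 0.452 on day 2. These 2 genes did not reach 3 positions on each day and enter no comparison between days. Rpl15, a large subunit protein on the Diamond-Blackfan list, was the next lowest by its mean over days, with 1.26, 1.72 and 1.96 and stood highest on day 2. The surroundings of all 3 genes were low as well, at 0.479, 0.265 and 0.491 around Rpl39l, 0.129, 0.067 and 0.382 around Rpl10l and 0.787, 0.817 and 0.937 around Rpl15.

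The proteins of the stalk, which calls elongation factors to the large subunit, stood near or above the median of the members on day 0. Rplp0, its base, had 3.55, 5.64 and 3.08 on days 0, 1 and 2, Rplp1 had 3.98, 3.91 and 3.21, and Rplp2 had 5.26, 5.72 and 3.71. Rpsa, a small subunit protein first described as a laminin receptor, had 4.11, 4.63 and 3.20. Rplp0 was higher on day 1 than on day 0, while the values of Rplp1 on these days were nearly equal.

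Most members stood higher on day 1 than on day 0 and lower on day 2 than on day 1. Among the 75 members that had 3 or more positions in every library, the median log2 ratio of relative occupancy was 0.49 for day 1 over day 0, against 0.19 over 18346 coding genes, and 69 members were above 0. For day 2 over day 1 it was -0.64, against -0.32, and 69 members were below 0. For day 2 over day 0 it was -0.17, against -0.15, so the difference to all genes was -0.03. The comparisons share libraries, so a high day 1 enters the first 2 with opposite signs.

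Genes of similar length changed nearly as much as the members, and the surroundings changed in the same directions. Coding genes in the members' middle length range had medians of 0.40, -0.58 and -0.21 for day 1 over day 0, day 2 over day 1 and day 2 over day 0. Against them the members differed by 0.10, -0.06 and 0.03 on the log2 scale, in place of 0.30, -0.33 and -0.03 against all genes. The 100 kb on each side of the members changed by medians of 0.25, -0.54 and -0.33. Around all coding genes the medians were 0.12, -0.28 and -0.21. Across the 75 members the change of the gene followed that of its surroundings less closely than the levels did, with Spearman correlations of 0.23, 0.41 and 0.43 over genes that share their libraries. In the same 3 comparisons 53, 23 and 52 of the 75 members lay above their own surroundings, as did 10631, 8063 and 9847 of the 18346 coding genes. Counting only within 500 bp of the start and end of the gene, the difference to all genes was 0.17 for day 1 over day 0 and -0.02 for day 2 over day 1.

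**Figure D4:**
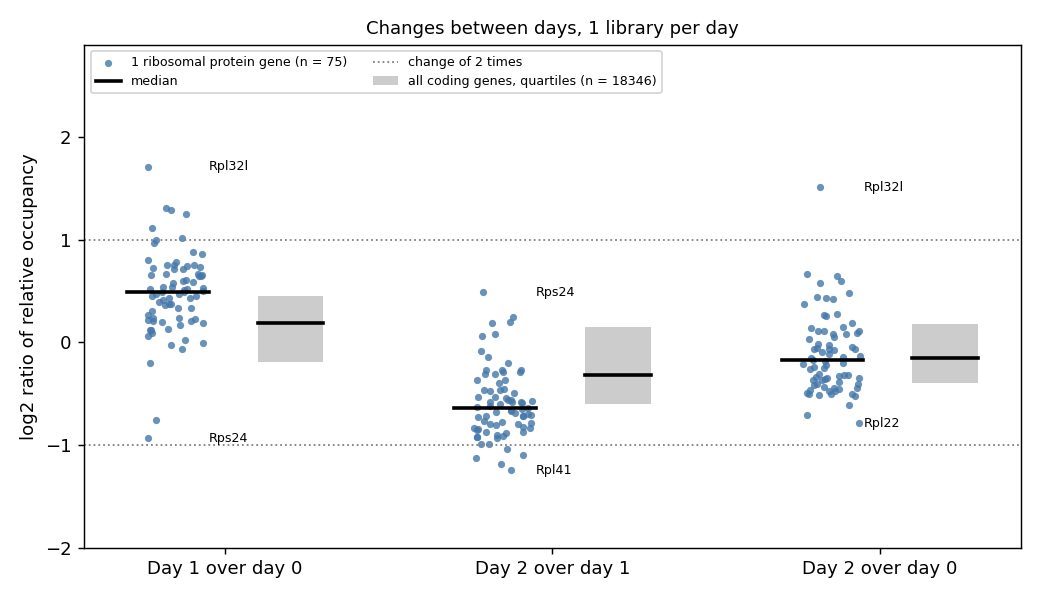
log2 ratio of relative occupancy between days for each ribosomal protein gene (dots, n = 75; black line, median) beside the quartiles and median of all coding genes (grey bars, n = 18346), with dotted lines at a change of 2 times. The member medians are 0.49, -0.64 and -0.17, and few members pass the lines.

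Few single members differed by 2 times between days. For day 1 over day 0, 6 of 75 members were higher by 2 times, against 2.93% of all genes, and 0 were lower, against 5.79%. Of 1345 coding genes in the members' middle length range, 99 were higher and 57 lower. For day 2 over day 1, 0 members were higher, against 7.71%, and 5 were lower, against 2.56%. Of the 1345 genes of like length, 37 were higher and 130 lower. With the libraries scaled to the median of all gene windows, 1 member was lower on day 2 than on day 1, against 0.649% of all genes. For day 2 over day 0, 1 member was higher, against 5.61%, and 0 were lower, against 2.25%. Of the 1345 genes of like length, 40 were higher and 48 lower. The counts depended on the window, since counting only within 500 bp of either gene end, 12 of 73 were higher on day 1 than on day 0, against 16.2% of all genes, and 23 were lower on day 2 than on day 1, against 19.7%. Over all genes too, differences in these directions were thus more common at the gene ends, while the opposite ones were less common. At the ends 1.31% of all genes were lower on day 1 than on day 0, and 0.593% were higher on day 2 than on day 1.

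The members with the largest increases on day 1 came from both subunits. Rpl32l (chr10:20208439-20209030), a gene named for its likeness to Rpl32, had 0.805, 2.63 and 2.29 on days 0, 1 and 2, a log2 ratio of 1.71 for day 1 over day 0 and of 1.51 for day 2 over day 0, but day 0 rests on 3 positions. Rpl9 had 2.56, 6.35 and 3.45, a log2 ratio of 1.31 for day 1 over day 0, and Rps9, a small subunit protein, had 1.65, 4.03 and 2.45, a log2 ratio of 1.29. Rps20, on the Diamond-Blackfan list, had 1.50, 3.57 and 2.38, with 1.25 for day 1 over day 0 and 0.67 for day 2 over day 0. Rpl41 and Rpl28 were the other members past 2 times, with 1.11 and 1.02. On day 2 all 6 were lower than on day 1, as were 69 of all 75 members. A rank by day 1 over day 0 favours genes with a high day 1, so this fall is no separate result.

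Rps24 (chr14:24490678-24496960), the small subunit gene mutated in some patients with Diamond-Blackfan anaemia, ran opposite to the median of the members. Its relative occupancy over days 0, 1 and 2 was 2.83, 1.48 and 2.08, from 34, 15 and 30 positions. The log2 ratio of day 1 over day 0 was -0.93, the lowest of the 75, and that of day 2 over day 1 was 0.49, the highest. The 100 kb on each side had 1.16, 0.524 and 0.733, so the surroundings moved the same way. Rps23, a protein of the decoding centre, had 3.71, 2.20 and 2.62, with -0.75 and 0.25, and its surroundings had 1.05, 0.754 and 1.05. Rps29 followed Rps23 in the order of day 1 over day 0, at -0.20, with 2.86, 2.49 and 2.02.

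The largest decreases on day 2, over day 1 or over day 0, were found in both subunits. A rank by day 2 over day 1 favours genes with a high day 1, so their day 1 values are no separate result. Rpl41, the smallest protein of the ribosome, had 3.31, 7.15 and 3.01, a log2 ratio of -1.25 for day 2 over day 1. Rpl11, which with Rpl5 and 5S rRNA binds Mdm2 and so raises p53 when ribosome assembly fails, had 4.26, 6.34 and 2.79, with -1.18 for day 2 over day 1 and -0.61 for day 2 over day 0. Rps2 and Rpl14 also passed 2 times with -1.10 and -1.04. Rpl22 had 4.01, 3.84 and 2.32, the largest decrease for day 2 over day 0 at -0.79, followed by Rpl18 at -0.71 with 5.13, 5.98 and 3.14. Rpl15 was among the 3 highest for day 2 over day 1, at 0.19, and for day 2 over day 0, at 0.64.

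The 19 members on the Diamond-Blackfan list had median levels of 3.41, 4.84 and 2.89, close to those of all 77. Their median log2 ratios were 0.43, -0.59 and -0.19 for day 1 over day 0, day 2 over day 1 and day 2 over day 0, with Rps20 higher by 2 times on day 1 than on day 0 and Rpl11 lower by 2 times on day 2 than on day 1. Rps19, the gene most often affected in human patients, had 3.65, 5.48 and 3.55, with 0.58, -0.63 and -0.04. Rpl5 had 3.23, 3.22 and 2.60, with log2 ratios of 0.00, -0.31 and -0.31, so its level on day 1 was not above that on day 0. Rps14, whose loss underlies the anaemia of the human 5q- syndrome, had 2.76, 4.52 and 3.75, with 0.71, -0.27 and 0.44.

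The medians of other genes of translation were also higher on day 1 than on day 0 and lower on day 2 than on day 1. Those of all coding genes moved the same way, with log2 ratios of 0.19 and -0.32. The 35 genes of ribosome assembly had median levels of 3.21, 4.20 and 2.69 and median log2 ratios of 0.38, -0.63 and -0.17, with 0 genes past 2 times in any comparison. The 22 translation factors had 2.57, 3.01 and 2.45 and log2 ratios of 0.32, -0.41 and -0.15. Eif3e, a subunit of initiation factor 3, was higher by 2 times on day 2 than on day 1 and on day 0, and Eif4a1, the helicase of initiation, was lower by 2 times on day 2 than on day 1. The 8 ribosomal protein genes and related genes outside the symbol rule, such as Fau and Rack1, had 3.50, 5.28 and 3.19, and 7 of them had the minimum of positions, with log2 ratios of 0.62, -0.69 and -0.07. The mitochondrial ribosomal protein genes had 0.35, -0.43 and -0.14, with 3 of 77 higher by 2 times on day 1 than on day 0 and 4 lower on day 2 than on day 1. Over all coding genes, 2.93% were higher and 5.79% lower by 2 times on day 1 than on day 0. The shares were 7.71% and 2.56% for day 2 over day 1, and 5.61% and 2.25% for day 2 over day 0.

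Single positions recurred more often in the members than over all gene windows, where positions are also sparser. Of 1897 day 1 positions in member windows, 493 (26.0%, exact Clopper-Pearson 95% interval 24.0 to 28.0) had a day 0 centre within 20 bp, against 18.3% over all gene windows. Of 1866 day 2 positions, 522 (28.0%, 25.9 to 30.1) had a day 1 centre, against 14.8%, and 443 (23.7%, 21.8 to 25.7) a day 0 centre, against 15.5%. After a shift of 1000 bp the shares were 20.2%, 21.0% and 18.7% in the members and 14.2%, 11.3% and 12.2% over all gene windows. The excess over the shifted share was thus 5.82, 6.97 and 5.01 percentage points in the members, against 6.01, 5.26 and 2.69 in the mitochondrial ribosomal protein genes and 4.03, 3.58 and 3.39 over all gene windows. As a ratio, the share was 1.29, 1.33 and 1.27 times the shifted share in the members, against 1.28, 1.32 and 1.28 over all gene windows, so on this scale the members were close to other genes, and the difference in excess was not tested. Most member positions had no centre within 20 bp on the other day.

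**Figure D5:**
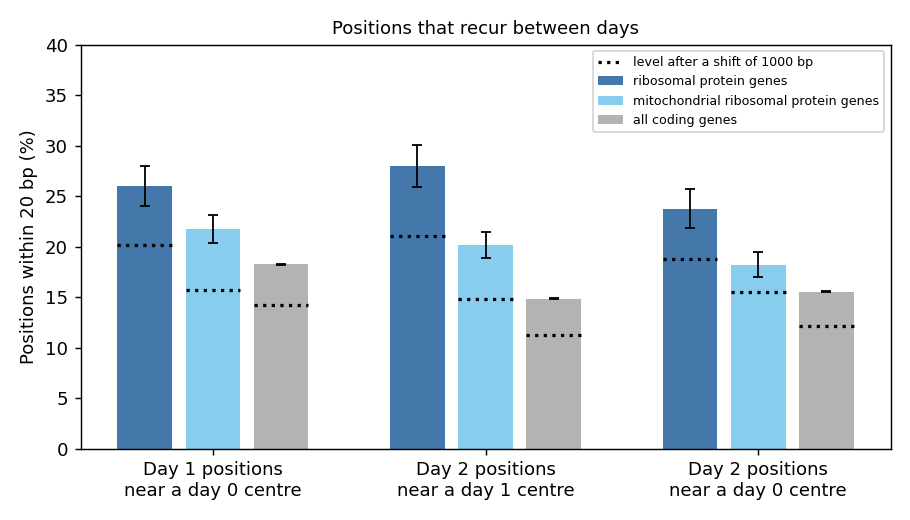
Share of positions of the later day with a centre of the earlier day within 20 bp, in percent, for ribosomal protein genes, mitochondrial ribosomal protein genes and all coding genes, with exact 95% intervals for counting error. Dotted lines give the share after a shift of 1000 bp, which lies 5.82, 6.97 and 5.01 percentage points below the bars of the ribosomal protein genes.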

How the data were processed

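For each library the authors deposited a list of positions. Bowtie2, bedtools and the build mm10 are named in the submitters' processing notes, without versions, while no source used here names the caller. Summit values are a smoothed coverage signal that the authors scaled before deposit; the lists also hold a fuzziness score and 2 p-values per position as deposited by the authors, and the p-values were not used. Each list was called in its own library, so sums depend on how much was called.

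Genes came from a RefSeq table of GRCm38.p6, without the 105 coding genes of chromosomes 1 to 19 with coordinates below 3 Mb, and start sites and strands from RefSeq promoters of the same build. The table gives no exons, so none were used. Positions were summed over the gene with 1 kb on each side and divided by the same sum per bp over the autosomes. A change of 2 times among genes that had 3 or more positions in every library is a size rule, not a test. Intervals are exact (Clopper-Pearson, Poisson, or order statistics of a median over genes, 95%) and cover counting error or the spread over genes only, not the spread between cultures. In 29 of the 77 member windows lies part of another coding gene. A total of 58 members have a pseudogene named after them in the gene table, and no source used here says how reads with several matches were treated, so values of near-identical sequence are uncertain.

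The members, the gene lists and the rule for named genes were chosen with earlier results of these data known. The rule named the 3 largest increases and decreases in each comparison, the 3 highest and lowest members, the stalk genes and Rpsa, 6 genes tied to human anaemia and members without a position on some day; genes of interest at the start site, those past 2 times and Rpl3l were added after their values were seen. The values of some genes that the rule names are not reported here. The counting was tested on simulated data. Alternatives in the window, the weighting, the summit minimum, the scaling, the background genes, the distance for a recurring position and the smoothing were run. Python 3.11.15, numpy 2.4.6, pandas 2.3.3, scipy 1.17.1 and matplotlib 3.10.9 were used.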

Additional observations from a re-analysis of the deposited data

How the results depend on the processing

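Of the 126 values recomputed under an alternative, 74 stayed and 52 moved. A value stayed if it lay within the interval of the reported value. For counts the limit was 1.5 times, and for the place of a maximum 10 bp. Scaling to the median of all gene windows shifts all log2 ratios of a comparison alike. It could not change the differences to all genes, which are counted among the 74. The difference to all genes for day 2 over day 0 was reported as -0.03, with an interval that spans 0. It changed sign in 2 of the 126 values, to 0.00058 with each position counted once and 0.033 against genes of like length. Values for days 0, 1 and 2 follow in that order. The median relative occupancy became 4.06 and 5.77 on days 0 and 1 over the gene without flanks, 2.83 on day 2 within 500 bp of both gene ends, 2.83, 3.89 and 2.51 with each position counted once, and 6.98, 10.3 and 6.87 with summit values of 10 or more. The difference in log2 change between members and all genes for day 1 over day 0 became 0.17 at the gene ends, 0.19 with each position counted once and 0.10 against genes of like length. For day 2 over day 1 it became -0.41 without flanks, -0.016 at the gene ends, -0.24 with each position counted once and -0.064 against genes of like length. Counts of members that differed by 2 times follow with the share of all genes under the same setting. Members higher on day 1 than on day 0 numbered 12 at the gene ends (16.2%), 3 with each position counted once (1.97%), 15 of 61 with summits of 10 or more (14.0%) and 3 of 46 without another coding gene in the window (2.93%, from all genes); members lower numbered 1 at the gene ends (1.31%), 1 with no minimum of positions (7.19%) and 1 with scaling to the median gene (7.12%). On day 2 over day 1, 2 were higher with summits of 10 or more (9.74%) and 1 with no minimum (10.1%), and 9 were lower without flanks (4.05%), 23 at the gene ends (19.7%), 14 with summits of 10 or more (10.4%), 3 without another coding gene (2.56%) and 1 with scaling to the median gene (0.649%). On day 2 over day 0, 0 were higher without flanks (5.37%), 3 at the gene ends (4.24%), 7 with summits of 10 or more (12.9%), 0 without another coding gene (5.61%) and 0 without Rpl3l, Rpl10l, Rpl39l and Rpl32l (5.61%), an alternative chosen after the data were seen, while 4 were lower with summits of 10 or more (10.7%). Recurring positions for day 1 over day 0, day 2 over day 1 and day 2 over day 0 came to 15.4%, 16.4% and 13.2% within 10 bp, 44.4%, 47.3% and 43.4% within 40 bp, and 15.3%, 16.6% and 14.9% with summits of 10 or more. The first maximum after the start moved to 115 bp on day 1 with 75 bp of smoothing and to 135 bp on day 2 with summits of 10 or more. Its height became 8.24 on day 1 with each position counted once, and 21.0, 74.3 and 25.5 with summits of 10 or more, where the density before the start on day 2 was 0. Summits of 10 or more leave 7, 15 and 6 centres at the maximum. The causes of the other shifts were not tested. No paired analysis was possible because each day has 1 library.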

Other observations

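The ribosomal protein genes on the X chromosome, outside the rule, lay below the members' medians of 3.51, 4.85 and 3.04 on days 0, 1 and 2, at levels that a few autosomal members also had. On days 0, 1 and 2 Rpl39 had relative occupancies of 1.41, 0.494 and 1.55, and Rps4x had 0.879, 0.658 and 1.37. Rpl10 had 1.48, 1.53 and 1.65, and Rpl36a had 1.36, 1.28 and 1.13. All are scaled to the autosomes, and no source used here gives the sex of the fetuses, which sets the number of X copies.

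Within the autosomes, 281 pseudogenes named after ribosomal protein genes, with a median length of 539 bp, had a mean relative occupancy of 1.71, 2.43 and 1.75 inside the copy, against 1.40, 1.46 and 1.24 in their flanks. Over all 9227 pseudogenes the inside had 0.886, 1.03 and 1.04 and the flanks 0.971, 0.990 and 1.02. The 58 members with a pseudogene named after them had median levels of 3.65, 4.98 and 3.08, and the 19 without had 3.31, 4.83 and 3.01. The part of reads shared between genes and copies was not tested.

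The 27 members that hold snoRNA genes, 56 in all, had median levels of 3.68, 4.93 and 3.08, and the 50 members without had 3.43, 4.63 and 3.01.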
